A study of Mus musculus with 4 samples.

Results

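Metallothioneins and the proteins that carry zinc across membranes were described in mouse atria and ventricles by 9 genes: the metallothioneins Mt1, Mt2 and Mt3, the zinc-sensing transcription factor gene Mtf1, the exporter genes Slc30a1 and Slc30a2, and the importer genes Slc39a8, Slc39a10 and Slc39a14. They were taken by symbol from the table of 18781 named genes, and all 9 had a probe set, which is a group of short array probes summarised to 1 value per gene. The study compared adult Mef2a knockout mice (Mef2a-/-) with wild type mice (Mef2a+/+) in each chamber type, at 2 months of age and with males and females mixed. There were 4 groups with 1 array each, namely wild type atria, knockout atria, wild type ventricles and knockout ventricles, and the RNA on an array came from a pool of 7 mice. No mouse had a treatment or a second altered allele that the labels name, and the part of Mef2a that was deleted, the cells it was deleted in and whether the same mice gave both chambers are not given in the sources used here. With 1 array per group there is no replicate spread, so each difference below describes these pools and has no test.

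Metallothioneins are small cysteine-rich proteins of the cytosol that bind zinc and copper and also react with oxidants. When free zinc rises, the transcription factor MTF1 binds short metal response elements (MREs) and raises transcription of Mt1, Mt2 and the exporter gene Slc30a1. Glucocorticoids, inflammatory cytokines and oxidative stress also raise Mt1 and Mt2. Proteins of the SLC30 family move zinc out of the cytosol, across the plasma membrane or into vesicles, and proteins of the SLC39 family move it into the cytosol. In heart muscle, metallothioneins are best known for protection against oxidative injury.

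The stretch before the annotated start is shown for the metallothionein genes, which lie in 1 cluster on chromosome 8, and for Slc30a1, because Mt1, Mt2 and Slc30a1 are the established MTF1 targets among the members and Mt3 is their neighbour. Sequences are from RefSeq (GRCm38.p6), read in the direction of the gene, and run over the 250 bases before the start. They lie at chr8:94172368-94172617 for Mt2, chr8:94178839-94179088 for Mt1, chr8:94152357-94152606 for Mt3 and chr1:191906531-191906780 for Slc30a1, all on the plus strand. Capitals mark the MRE core, TGCACNC or TGCGCNC on either strand, with overlapping matches counted separately.
Mt2: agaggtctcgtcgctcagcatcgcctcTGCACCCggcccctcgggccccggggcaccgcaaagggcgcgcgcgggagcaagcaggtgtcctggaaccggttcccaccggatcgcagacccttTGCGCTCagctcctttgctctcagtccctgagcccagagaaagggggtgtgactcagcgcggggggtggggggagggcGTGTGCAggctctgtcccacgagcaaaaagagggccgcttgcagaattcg
Mt1: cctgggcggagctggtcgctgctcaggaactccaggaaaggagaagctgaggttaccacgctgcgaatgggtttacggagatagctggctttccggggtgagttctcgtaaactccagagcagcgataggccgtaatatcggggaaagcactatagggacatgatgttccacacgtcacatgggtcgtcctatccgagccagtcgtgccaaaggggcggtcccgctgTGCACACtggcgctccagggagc
Mt3: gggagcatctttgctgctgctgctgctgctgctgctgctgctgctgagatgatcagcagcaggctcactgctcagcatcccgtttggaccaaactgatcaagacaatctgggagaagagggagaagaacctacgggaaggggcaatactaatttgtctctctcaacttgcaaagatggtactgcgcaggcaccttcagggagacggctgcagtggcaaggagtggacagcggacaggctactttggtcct
Slc30a1: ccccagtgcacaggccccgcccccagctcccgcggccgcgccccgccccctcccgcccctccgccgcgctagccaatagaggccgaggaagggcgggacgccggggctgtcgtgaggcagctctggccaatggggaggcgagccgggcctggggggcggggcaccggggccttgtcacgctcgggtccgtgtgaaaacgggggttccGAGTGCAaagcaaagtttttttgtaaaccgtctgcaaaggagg

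Within 300 bases, from 250 before to 50 after the start, Mt2 held 4 cores, Mt1 held 3, Slc30a1 held 2 and Mt3 held 1. Those after the start, and so outside the printed part, were TGCACTC and TGCGCTC in Mt1, GTGCGCA in Mt2, GAGCGCA in Slc30a1 and TGCACAC in Mt3. Of 32851 such windows over all genes, 25.7% held at least 1 core, 1.97% at least 3 and 0.517% at least 4. The windows of the other members held 2 cores for Slc30a2, 1 in the second of 2 windows of Slc39a8, and 0 for Mtf1 and in the 2 windows of Slc39a10. The antioxidant response element, TGACNNNGC on either strand, matched in windows of Mt2, Slc30a1 and Slc39a8, with 0 matches overlapping an MRE core, and in 12.4% of all windows. The MEF2 consensus matched in 0 of the 10 member windows and in 3.19% of all windows. These matches describe letters in a short window at the annotated start and are not measured binding sites.

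The median value on an array lay between 5.66 and 5.75 (log2 intensity), and the spread of values was narrower on the knockout atria array (interquartile range 2.97) than on the others (3.18 to 3.21). Mef2a itself stood between 10.28 and 10.41 on the 4 arrays and was not lower on the knockout-labelled arrays, so this signal cannot serve as a check of genotype and all directions given here depend on the labels. Chamber markers followed the tissue labels, with Myl7, the atrial myosin light chain, at 12.28 and 12.19 in atria against 7.17 and 6.64 in ventricles, and Myl2, the ventricular light chain, at 12.20 and 12.19 in ventricles against 10.33 and 10.29 in atria. Genes past 1.5-fold between genotypes, or past 2-fold between chambers, were counted where the brighter array reached 5.71, the median of all values, called the floor. In the knockout atria array dim genes were shifted upward: the median log2 ratio to wild type was 0.13 over the 8731 genes below the floor and −0.03 over those above it, against 0.00 and 0.00 in ventricles.

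Among the metallothioneins, Mt2 differed most between the genotypes. It stood at 9.39 on the wild type atria array, 10.36 on knockout atria, 8.95 on wild type ventricles and 10.19 on knockout ventricles (log2 intensity). Both knockout-labelled arrays were higher than both wild type arrays, and the gap between the lower knockout and the higher wild type value was 0.80. Of 10326 genes above the floor on some array, 8.25% had both knockout arrays above both wild type arrays, and the gap of Mt2 was rank 2 among the 10326. Mt2 was the only 1 of the 8 members above the floor with that order. Slc30a2, below the floor on every array, had it too, with a gap of 0.10. Both knockout arrays lay below both wild type arrays for 10.5% of these genes and for 0 of the 9 members. The knockout ratio was 0.97 on the log2 scale in atria (1.96-fold) and 1.24 in ventricles (2.36-fold). These were rank 23 of 10050 genes above the floor in atria and rank 10 of 9712 in ventricles, counted from the highest.

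Mt1, the neighbouring gene that is usually induced together with Mt2, differed far less. It stood at 9.96 on wild type atria, 10.15 on knockout atria, 9.57 on wild type ventricles and 9.91 on knockout ventricles. The knockout array was the higher of each pair, but wild type atria (9.96) lay above knockout ventricles (9.91), so the genotypes overlapped. The log2 ratio was 0.19 in atria (1.14-fold) and 0.33 in ventricles (1.26-fold), and neither reached 1.5-fold. The knockout ratio of Mt2 exceeded that of Mt1 by 0.78 in atria and 0.91 in ventricles on the log2 scale. Both genes were well above the floor on all 4 arrays. How much of the signal of each probe set comes from the transcript of the other gene was not tested.

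Mt3, a metallothionein best known from brain, stood at 7.22 on wild type atria, 7.84 on knockout atria, 6.14 on wild type ventricles and 6.53 on knockout ventricles. The knockout array was again the higher of each pair, and both atrial arrays lay above both ventricular arrays. The log2 ratio was 0.62 in atria (1.54-fold, past the fold) and 0.39 in ventricles (1.31-fold, not past it). Mt4, the remaining gene of the cluster, known from stratified epithelium, was below the floor on all 4 arrays (3.71 to 4.14). The knockout ratios of Mt1, Mt2 and Mt3 were positive in both chambers, and they stayed positive under the 3 other scalings tried (median centring, quantile normalization, and centring by a lowess curve).

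**Figure D1:**
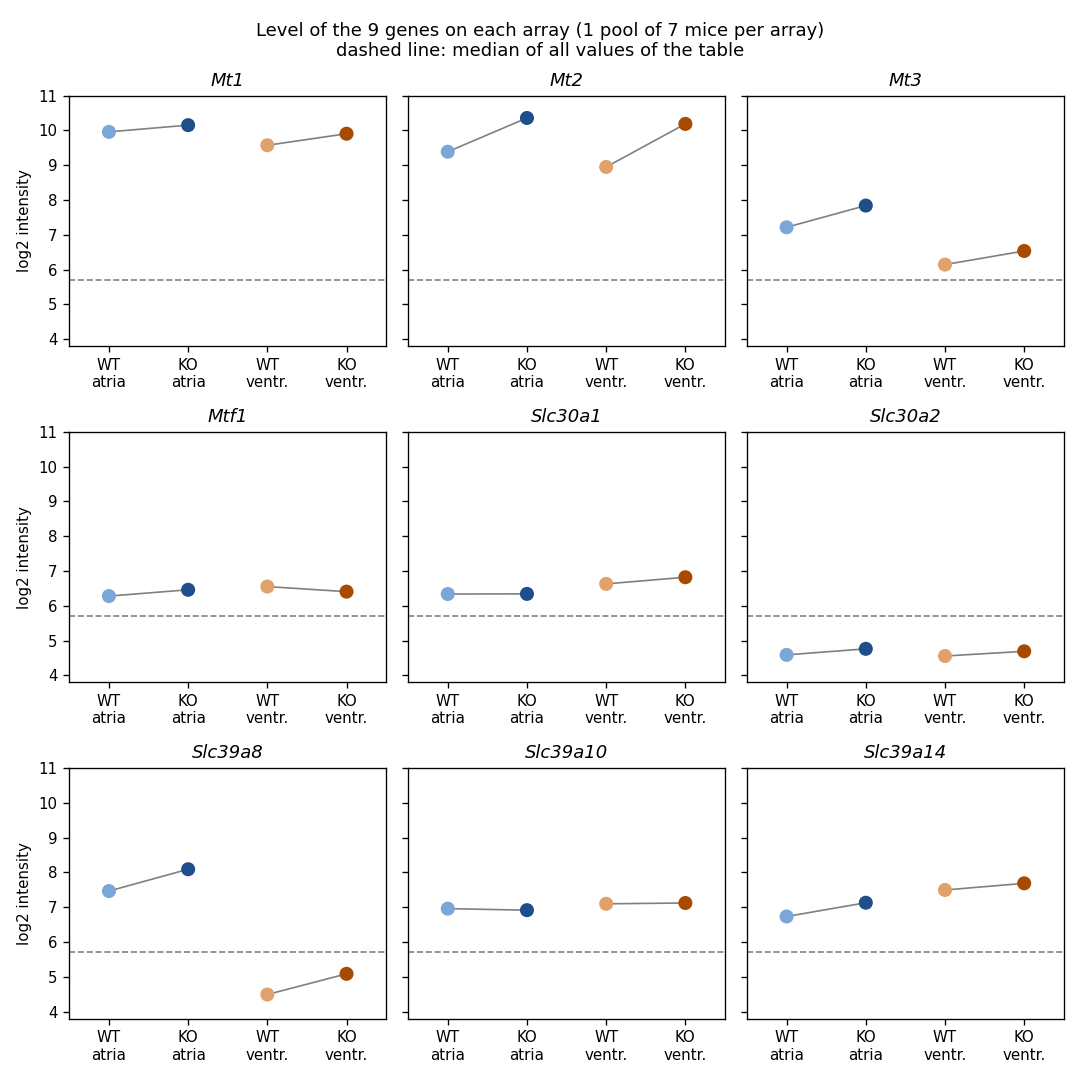
Log2 intensity (vertical axis) of the 9 genes on the 4 arrays, 1 point per array and 1 pool of 7 mice per array, with the dashed line at the floor of 5.71. Mt2 is higher on both knockout arrays (10.36 and 10.19) than on both wild type arrays (9.39 and 8.95), and Slc39a8 lies above the floor only in atria.

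Mtf1 stood at 6.28 on wild type atria, 6.46 on knockout atria, 6.55 on wild type ventricles and 6.41 on knockout ventricles. Its knockout ratio was 0.18 in atria and −0.15 in ventricles, so the sign differed between the chambers, and neither value reached 1.5-fold.

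Slc30a1 encodes ZnT1, the zinc exporter of the plasma membrane and an established MTF1 target. Its values were 6.34 on both atrial arrays, 6.63 on wild type ventricles and 6.82 on knockout ventricles. The log2 ratio was 0.00 in atria, with its sign turned under median centring (−0.03), and 0.19 in ventricles (1.14-fold). The other exporter, Slc30a2, which loads zinc into vesicles and is known from the mammary gland, was below the floor on all 4 arrays, at 4.59, 4.76, 4.56 and 4.69 in the order above. Its knockout ratios of 0.17 and 0.14 therefore lay among values near background. The atrial value went from 0.17 to 0.00 under lowess centring, which removes the trend with level.

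Of the importers, Slc39a8 had the highest knockout ratios. It encodes ZIP8, which carries zinc, manganese, iron and cadmium into cells. It stood at 7.47 on wild type atria and 8.09 on knockout atria, but at 4.49 on wild type ventricles and 5.09 on knockout ventricles, both below the floor. The log2 ratio was 0.63 in atria (1.54-fold, past the fold). In ventricles it was 0.59, which is 1.51-fold but was not counted because both values were below the floor.

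Slc39a14 encodes ZIP14, an importer of zinc, iron and manganese that inflammation raises in liver. It stood at 6.73 on wild type atria, 7.13 on knockout atria, 7.50 on wild type ventricles and 7.69 on knockout ventricles. The knockout array was the higher of each pair, with log2 ratios of 0.40 in atria (1.32-fold) and 0.19 in ventricles (1.14-fold), and neither was past the fold. Slc39a10 encodes ZIP10, an importer whose transcript zinc and MTF1 repress. It stayed within 0.21 log2 units over all 4 arrays, at 6.96 on wild type atria, 6.92 on knockout atria, 7.10 on wild type ventricles and 7.12 on knockout ventricles. Its atrial ratio of −0.04 turned positive under quantile normalization (0.03).

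Counted together, 8 of the 9 genes were above the floor in the atrial comparison and 7 in the ventricular one. In atria Mt2, Mt3 and Slc39a8 were past 1.5-fold higher and 0 were past it lower, where 1.02% of the 10050 genes above the floor were higher and 2.01% lower. In ventricles Mt2 alone was past 1.5-fold higher and 0 were lower, where 0.515% of 9712 genes were higher and 0.69% lower. The median log2 ratio of the members above the floor was 0.29 in atria and 0.19 in ventricles, against −0.03 and 0.00 over all genes above the floor. The members just past 1.5-fold in atria were Mt3 (0.62) and Slc39a8 (0.63), and the nearest below it was Slc39a14 (0.40). The genes were chosen with earlier results in view, so the shares are descriptions.

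The atrial and ventricular knockout ratios come from separate arrays and were compared gene by gene. The ventricular ratio minus the atrial ratio was 0.27 for Mt2, 0.14 for Mt1, −0.23 for Mt3, −0.33 for Mtf1, 0.19 for Slc30a1, −0.04 for Slc30a2, −0.03 for Slc39a8, 0.07 for Slc39a10 and −0.20 for Slc39a14. These differences have no test. The robust standard deviation of the same difference over all genes above the floor in both chambers was 0.20. Mtf1 exceeded that size under all 4 scalings, while which other members did so depended on the scaling. Mt2 ranged from 0.20 to 0.33 and Mt3 from −0.17 to −0.29. Under median centring the difference turned sign for Slc30a2 (0.02) and Slc39a8 (0.03), and under quantile normalization for Slc30a2 (0.11) and Slc39a10 (−0.01).

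**Figure D2:**
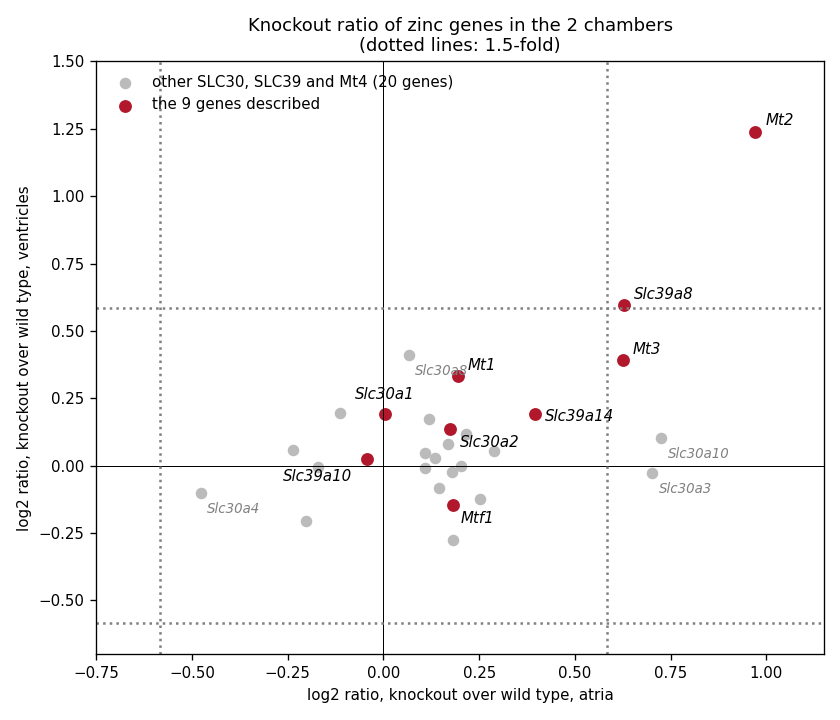
Knockout over wild type log2 ratio in atria (horizontal axis) against ventricles (vertical axis) for the 9 genes (red) and the 20 other SLC30, SLC39 and metallothionein genes (grey), 1 point per gene, with dotted lines at 1.5-fold. Mt2 lies farthest to the upper right (0.97 and 1.24), Slc39a8 lies just past both lines (0.63 and 0.59, the second below the floor), and Mt1 is at 0.19 and 0.33.

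The rest of the transporter families was read for comparison. Of the 20 other SLC30, SLC39 and metallothionein genes, 13 were above the floor in the atrial comparison and 10 in the ventricular one. Slc30a3, a vesicular zinc exporter known from synaptic vesicles, was the only 1 of them counted past 1.5-fold, at 0.70 in atria. Its atrial values were 5.21 in wild type and 5.92 in knockout, so it reached the floor on the knockout array only, where dim genes were shifted upward. Its ventricular ratio was −0.03. Slc30a10, a manganese exporter, had an atrial ratio of 0.72 below the floor (4.71 and 5.43). The other 5 exporters above the floor in atria, Slc30a1 apart, had negative ratios, the lowest being −0.48. At any level, 13 of the 14 SLC39 genes and 5 of the 10 SLC30 genes had a positive atrial ratio, where 58.0% of all genes were positive. In ventricles 8 of the 14 and 6 of the 10 were positive, where 50.4% of all genes were. The atrial tallies at any level hold genes below the floor, which were shifted upward on the knockout array, and the part of that shift in them was not tested. Above the floor alone, 9 of 10 SLC39 and 2 of 7 SLC30 genes were positive in atria, where 43.1% of all such genes were. In ventricles 6 of 7 and 3 of 6 were positive, where 51.2% were. These family tallies include the members. For the 20 other genes alone, 8 of 13 above the floor were positive in atria and 6 of 10 in ventricles.

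Between the chambers, Slc39a8 had the largest measured difference of the members. In wild type its atrial value of 7.47 exceeded the ventricular value of 4.49 by 2.98 on the log2 scale, and in knockout the difference was 3.01 (8.09 against 5.09). Both ventricular values were below the floor, near background, so the size of the difference is uncertain. Against the floor itself the atrial values were 3.39-fold higher in wild type and 5.23-fold higher in knockout. Mt3 was also higher in atria in both genotypes, by 1.07 in wild type (2.10-fold) and 1.31 in knockout (2.47-fold). These were the 2 members past 2-fold higher in atria, where 3.89% of genes above the floor were higher in wild type and 3.46% in knockout. None of the 9 was past 2-fold lower, where the shares were 2.21% and 2.85%. For all genes of the knockout chamber comparison the split was 350 higher and 288 lower, and it was 305 and 377 under median centring.

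Slc39a14 lay on the ventricular side, with atria below ventricles by 0.76 in wild type (1.70-fold) and 0.56 in knockout (1.47-fold). Slc30a1 was on the same side, with atria minus ventricles at −0.29 and −0.48. The chamber difference of Mt1 was 0.39 in wild type and 0.25 in knockout, and that of Mt2 was 0.44 and 0.17, all short of 2-fold. For both genes the chamber difference was smaller in knockout, as follows from their larger ventricular knockout ratio. Slc39a10 was at −0.14 and −0.21, Slc30a2 at 0.03 and 0.07, and Mtf1 at −0.27 and 0.05. The knockout signs of Slc30a2 and Mtf1 turned under median centring, to −0.02 and −0.04. Outside the 9 genes, Slc39a13, which encodes the secretory pathway importer ZIP13, was past 2-fold higher in atria in both genotypes (1.06 and 1.29). The chamber comparison of a genotype shares an array with each knockout comparison, so the ratios of a gene are not independent.

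**Figure D3:**
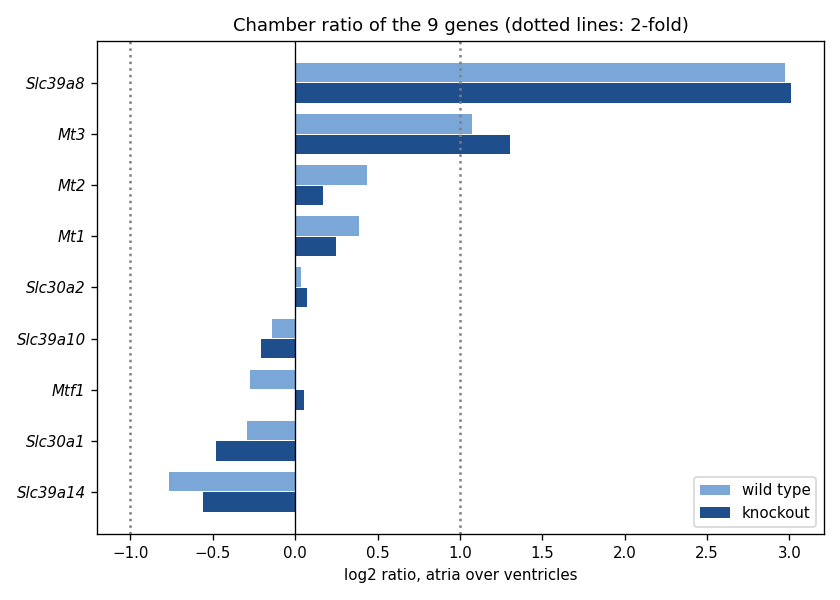
Atria over ventricles log2 ratio (horizontal axis) of the 9 genes in wild type (light bars) and knockout (dark bars), each bar the difference of 2 arrays, with dotted lines at 2-fold. Slc39a8 (2.98 and 3.01, with ventricles below the floor) and Mt3 (1.07 and 1.31) pass 2-fold toward atria, and Slc39a14 (−0.76 and −0.56) has the lowest values.

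Each array measured whole tissue, in which fewer cells of a type and less RNA per cell cannot be told apart. Markers of the mesothelial covering of the heart moved with the chamber difference of Slc39a8 and Mt3. All 5 epicardial markers were higher in atria in both genotypes, 4 of them past 2-fold, and their mean log2 value was 7.84 on wild type atria, 7.89 on knockout atria, 5.69 on wild type ventricles and 5.84 on knockout ventricles. All 7 fibroblast markers were also higher in atria, with means of 8.99, 8.54, 8.14 and 7.996 in the same order. All 5 atrial cardiomyocyte markers were past 2-fold higher in atria in both genotypes, with median log2 ratios of 5.11 in wild type and 5.55 in knockout. The part of these cell types in the chamber differences was not tested. Of all genes above the floor, 43.1% had a positive knockout ratio in atria and 51.2% in ventricles, which bears on the marker counts that follow. Between genotypes the fibroblast markers ran opposite to Mt2, with 7 of 7 lower on the knockout array in both chambers. Their median log2 ratio was −0.37 in atria and −0.13 in ventricles. In atria 2 of the 7, Lum (−0.84) and Pdgfra (−0.63), were past 1.5-fold lower, where 2.01% of all genes above the floor were. Of the epicardial markers 4 of 5 were higher on the knockout array in each chamber, with the means above. In ventricles 3 of the 5 were above the floor, and these 3 were higher. The 4 atrial cardiomyocyte markers above the floor in ventricles were all lower on the knockout array, with a median log2 ratio of −0.43. In atria 4 of 5 of them were lower, with a median of −0.05. The mean of the 6 endothelial markers stayed between 8.81 and 8.89 on the 4 arrays, and that of the 6 cardiomyocyte markers between 11.80 and 11.96. Of the 4 smooth muscle markers, Acta2 was higher on the knockout array in both chambers, at 0.61 in atria, past 1.5-fold, and 0.37 in ventricles. Cnn1 was lower at −1.29 in atria and −0.02, below the floor, in ventricles, and the means of the list were 7.33, 7.14, 7.09 and 7.13. All 5 measured macrophage markers were lower in knockout ventricles (median −0.20) and 3 of 5 in atria (median −0.07). All 4 neutrophil markers were below the floor on every array, as were 3 of 4 hepatocyte, 4 of 5 adipocyte and both measured glial markers. The fifth adipocyte marker, Retn, was at 5.73 on wild type atria and 4.66 on knockout atria. The part of these shifts in the knockout ratios was not tested.

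Known inducers of metallothioneins were read through lists of genes that respond to them. Of the 8 genes listed as MTF1 targets, 7 were above the floor in atria and 6 in ventricles. Mt2 was the only 1 past 1.5-fold in either chamber. Over all genes above the floor 1.02% were higher and 2.01% lower in atria, and 0.515% and 0.69% in ventricles. With so few genes, a count of 0 beyond Mt2 lies near those shares. The list is not separate from the 9 genes: it holds Mt1, Mt2, Slc30a1 and Slc39a10, the last of which MTF1 is known to repress.

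Among 13 glucocorticoid-induced genes 0 were past 1.5-fold in either chamber. Over all genes above the floor 1.02% were past it higher and 2.01% lower in atria. In ventricles the shares were 0.515% and 0.69%, so a count of 0 in so short a list lies near those of all genes. The largest sizes were 0.36 for Ddit4 and 0.30 for the kinase gene Pdk4 in atria, and 0.34 for Sgk1 and 0.31 for Pdk4 in ventricles. Pdk4 was thus on the higher side in both chambers. List medians were 0.07 and 0.05 over 12 genes above the floor.

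The shares of all genes past 1.5-fold, 1.02% higher and 2.01% lower in atria and 0.515% and 0.69% in ventricles, also apply to the lists that follow. Counts of 0 in these short lists lie near those shares. Among 10 genes of the interleukin and acute phase response 0 were past the fold. The largest sizes were 0.50 for Cebpb and 0.38 for the receptor gene Il6ra in atria. In ventricles they were 0.39 for Timp1 and 0.36 for the lipocalin gene Lcn2. Of the 8 NRF2 target genes above the floor, which encode antioxidant enzymes, 1 had a positive ratio in atria, where 43.1% of all genes above the floor did, and 6 in ventricles, where 51.2% did, with medians of −0.11 and 0.21. The quinone reductase gene Nqo1 had ratios of −0.25 in atria and 0.43 in ventricles. The largest atrial ratio was 0.26 for the heme oxygenase gene Hmox1, Gclm had 0.33 in ventricles, and 0 of the 8 were past the fold. The heat shock list had 0 past the fold and medians of −0.04 in atria, with its sign turned under quantile normalization, and 0.13 in ventricles. Hspa8 was lowest in atria (−0.44), and Hspa1a, whose probe set may also detect its near-identical copy Hspa1b, was at −0.20 in atria and 0.49 in ventricles. Of the hypoxia list 0 were past the fold, with medians of 0.14 and 0.02, and Adm, which encodes the vasodilator peptide adrenomedullin, was at 0.38 and 0.21.

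**Figure D4:**
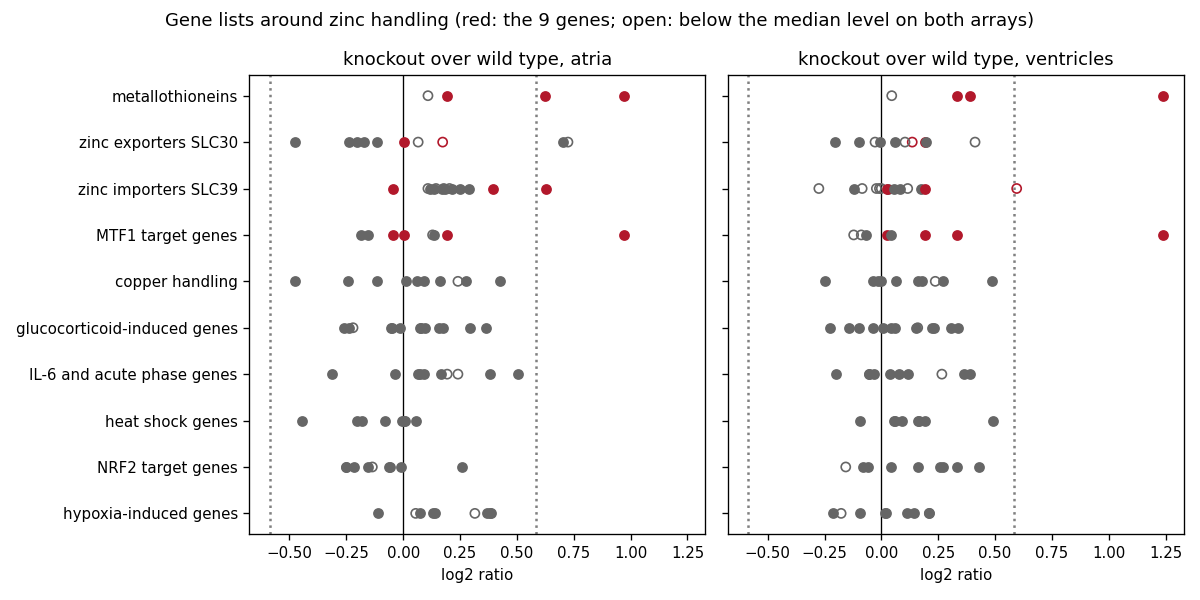
Knockout over wild type log2 ratio (horizontal axis) in atria (left) and ventricles (right), 1 point per gene in 10 lists (rows), with the 9 genes in red, open points for genes below the floor on both arrays and dotted lines at 1.5-fold. Outside the red points, Slc30a3 (0.70) and Slc30a10 (0.72, below the floor) pass 1.5-fold, both in atria.

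Genes with the pattern most like Mt2 were sought over 3 log2 ratios, the knockout ratio in each chamber and the wild type chamber ratio, as the Euclidean distance over 9403 other genes above the floor in all 3. The nearest was Tbc1d9 at a distance of 0.58, with log2 ratios of 1.48, 0.97 and 0.53 in that order, followed by Pcbd1 (0.66), the brain creatine kinase gene Ckb (0.78), the keratin gene Krt80 (0.79) and the immediate early gene Arc (0.82). Mt1 lay in a dense region, and its nearest genes were the homeobox gene Pbx3 at 0.04, Ptms at 0.05, the epicardial transcription factor gene Wt1 at 0.07, Ninj1 at 0.07 and the glutathione peroxidase gene Gpx1 at 0.08. The ratios rest on the same 4 arrays, so the likeness is a description.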

How the data were processed

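The authors deposited a table with 1 log2 intensity for each probe set and array. Per the submitters' processing notes, RMA in affy was used. This method corrects background, evens out the arrays and summarises probes, and it compresses differences near background. Tool versions, the array's probe set definitions and their build are not given in the sources used here. Of 21212 probe sets, 18786 had 1 gene symbol in the platform annotation, 6 had several and 2420 had none. Symbols were updated through RefSeq (GRCm38.p6), 18775 by gene number and 6 by accession, and the brightest probe set per symbol was kept, which left 18781 genes.

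The arrays do not share a single distribution, and whether a further step followed RMA is unknown. Ratios were taken by subtracting log2 values of 2 arrays, and the number of arrays limits the precision. The floor was the median of the table. Alternatives were median centring, quantile normalization, lowess centring (statsmodels 0.14.6, span 0.3), no floor, a floor at the 75th percentile and other folds (25% or 2-fold between genotypes, 25% or 1.5-fold between chambers). Marker and pathway lists, and the rule for named genes (all 9 members, list members past the fold or the largest, the 5 nearest patterns and the 5 neighbours on each side of the cluster), were written down with the members, and all were chosen with earlier results of these data known. Mef2a, Mt4, Slc30a10, Myl7 and Myl2 are named outside that rule, and not every gene it covers is named. The counting was tested on simulated data with changes well past the fold in genes well above the floor, so it does not bear on genes close to the fold. Promoter windows matched 8 of the 9 members by symbol.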

Additional observations from a re-analysis of the deposited data

How the results depend on the processing

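No paired analysis was possible because each group has 1 array, so no replicate number is shared by 2 pairs. The members past the fold in knockout against wild type atria numbered 3 under median centring, quantile normalization, lowess centring, without a floor and with the higher floor, and 0 at 2-fold. In ventricles the number was 1 under the same scalings and the higher floor. It was 2 without a floor (Slc39a8 added), where 99 of all 18781 genes were higher and 121 lower. Counting differences of 25% or more it was 3, all higher, where 244 of 9712 genes were higher and 267 lower. For wild type atria against ventricles it was 2, and 1 with the floor at the 75th percentile (7.27), which leaves out Mt3. At 25% it was 5, with 4 higher and 1 lower, where 1707 of 10034 genes were higher and 1941 lower. For the knockout chambers it was 2. At 25% it was 4, with 2 higher and 2 lower, where 1691 of 10120 genes were higher and 2400 lower. Differences of 25% between chambers were thus common among all genes. Under the 3 scalings the log2 ratio of every member moved by less than the robust standard deviation of ratios over genes in all 4 comparisons (108 values), and the 9 differences between the chambers in knockout ratio did so too, though those of Slc30a2, Slc39a8 and Slc39a10 turned sign under some scaling. Values of Slc30a2, and of Slc39a8 in ventricles, lie near background, where differences are compressed.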

Other observations

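The genes beside the metallothionein cluster were read in RefSeq order, 5 on each side, of which 8 had a named probe set. In ventricles 0 of the 7 above the floor were past 1.5-fold, where 0.515% of all genes above the floor were higher and 0.69% lower. In atria 1.02% of all genes above the floor were higher and 2.01% lower. There Nudt21, which encodes a factor for cleavage and polyadenylation of RNA, was past 1.5-fold on the lower side at −0.95. It went from 6.45 in wild type to 5.50 in knockout, the second value below the floor. Nudt21 was at 0.51 in ventricles. The closest measured genes, Bbs2 before the cluster and Nup93 after it, were at −0.26 and −0.15 in atria and at −0.01 and 0.01 in ventricles.

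Genes with 4 or more MRE cores in their richest promoter window numbered 86 above the floor in the atrial and 85 in the ventricular comparison. Mt2 was the only 1 of them past 1.5-fold higher in either, a share of 1.16% in atria and 1.18% in ventricles. Among genes with 0 cores the shares were 1.1% and 0.478%. The median log2 ratio of the genes with 4 or more cores was 0.03 in both chambers. For genes with 0, 1, 2 or 3 cores the medians lay between −0.04 and −0.03 in atria and rounded to 0.00 in ventricles.

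Of 10 copper-handling genes 0 were past 1.5-fold in either chamber. The shares over all genes above the floor were 1.02% higher and 2.01% lower in atria. In ventricles they were 0.515% and 0.69%. The copper oxidase gene Cp was higher on the knockout array of each pair, at 0.42 in atria (9.44 to 9.87) and 0.49 in ventricles (9.43 to 9.92). The copper chaperone gene Atox1 was at 0.27 in both chambers, and the copper importer gene Slc31a1 was at −0.48 in atria and 0.18 in ventricles.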
